A study of Mus musculus with 2 samples.

Results

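The genes described here make, modify, carry and trim heparan sulfate, and they were measured in single nuclei of mouse cerebral cortex. The genes were chosen by name, as a list of 35 symbols in 9 roles, and selected on their total count: a gene entered when it reached 20 UMIs (unique molecular identifiers, each marking 1 captured RNA molecule). Of the 35 symbols, 33 reached that number among the 30905 genes in the matrix, of which 18748 reached it. Sdc1 (30 UMIs) was the nearest gene inside the limit, and Hs3st6 (9 UMIs) and Gpc2 (0 UMIs) fell outside it. Because the list was drawn up from earlier values of these same libraries, with Hs3st2, Hs3st4 and Ndst4 picked as leading genes of separate excitatory groups, the levels of those 3 genes across these groups are a description and were not tested.

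Nuclei came from frozen cortex of untreated wild type C57BL/6 mice, 18 months old in one sample and 2 months old in the other, and each sample pooled 3 mice. The series' own text states ages of 18 to 22 and 2 to 3 months. Both samples were deposited in 1 matrix, whose barcodes end in 1 or 2. No label ties either suffix to an age, so the barcodes ending in 1 are called library 1 and the others library 2 and no age comparison was made. With 1 pool per age there is no replicate, and every 95% interval (exact Poisson for levels, exact Clopper-Pearson for shares) covers counting error only.

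Heparan sulfate is a long, unbranched sugar chain that is built in the Golgi on serine residues of a core protein. Exostosins polymerise the chain, N-deacetylase/N-sulfotransferases open it to modification, an epimerase and 2-O-, 6-O- and 3-O-sulfotransferases decorate it, and at the cell surface the Sulf enzymes remove 6-O-sulfate again. Glypicans, syndecans, perlecan and agrin carry the chains, which hold growth factors, guidance cues and synaptic adhesion proteins. In the brain the chains take part in axon guidance, synapse formation and the vascular basement membrane, and the 3-O-sulfotransferases form the largest family of the modifying enzymes.

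Hs3st2 (ENSMUSG00000046321) and Hs3st4 (ENSMUSG00000078591) encode 3-O-sulfotransferases, and Ndst4 (ENSMUSG00000027971) encodes an N-deacetylase/N-sulfotransferase. In GRCm38 the Hs3st2 gene spans chr7:121391859-121501770 and Hs3st4 spans chr7:123982869-124398989, both on the plus strand and 2481 kb apart. Ndst4 spans chr3:125404076-125728899 on the plus strand, 1713 kb from its paralog Ndst3. The sequences immediately upstream of the RefSeq starts of Hs3st2 and Hs3st4 are shown because these neighbouring paralogs were both high in layer 6 corticothalamic nuclei while differing in most other groups. Each run is 250 bases of GRCm38.p6 from the RefSeq table, plus strand, 5′ to 3′, ending at the base before the start, with every CG pair in capitals.
Hs3st2, chr7:121392046-121392295: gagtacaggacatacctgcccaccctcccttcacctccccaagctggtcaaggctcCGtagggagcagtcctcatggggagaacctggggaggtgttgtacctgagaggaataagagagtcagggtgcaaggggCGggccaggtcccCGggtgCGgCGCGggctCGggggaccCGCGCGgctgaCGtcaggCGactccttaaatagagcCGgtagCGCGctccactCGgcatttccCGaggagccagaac
Hs3st4, chr7:123982578-123982827: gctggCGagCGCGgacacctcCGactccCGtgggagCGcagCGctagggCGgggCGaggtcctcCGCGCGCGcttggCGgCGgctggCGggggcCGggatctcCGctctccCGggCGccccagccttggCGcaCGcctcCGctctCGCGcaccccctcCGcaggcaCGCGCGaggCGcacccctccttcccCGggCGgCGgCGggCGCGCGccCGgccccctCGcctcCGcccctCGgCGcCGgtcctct
The Hs3st2 stretch held 17 CG pairs at 64.8% GC, and the Hs3st4 stretch held 43 at 82% GC. Of the Hs3st2 pairs, 1 lay in the first 100 bases and 14 in the last 100, and of the Hs3st4 pairs 17 and 18, so the pairs of Hs3st2 crowded towards its start and those of Hs3st4 ran through the whole stretch. The nearest GENCODE transcript start lies 6 bases from the RefSeq start of Hs3st2 and 41 bases from that of Hs3st4, and a shorter Hs3st2 transcript starts 437 bases upstream, so that the Hs3st2 stretch is intronic to it. Over windows of 300 bases (250 before to 50 after the start), 26 of the 35 symbols matched the table, and 20 of the 26 (76.9%) were CpG-rich, meaning a ratio of observed to expected CG pairs of at least 0.6 and a GC share of at least 50%. Of all 20595 promoters in the table, 41.6% met the same rule. Among the members that were 4-fold or more above the median class in both libraries, 9 of 12 were CpG-rich, against 11 of 14 of the others. This promoter feature was thus about as frequent in members with a leading class as in the rest.

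Library 1 held 8914 barcodes with 58108297 UMIs and library 2 held 8587 with 60547146. A total of 16240 nuclei were kept, and 19 barcode sequences occurred in both libraries. Nuclei were clustered without the member genes and grouped into 10 classes of at least 50 nuclei per library. A class name means that its nuclei resembled that cell type by marker genes. The marker counts given next use the same lists that named the clusters, so they are not an independent check of the names. Own markers were highest in their class for all 8 of astrocytes, all 9 of endothelial cells, all 8 of fibroblasts and all 7 of microglia, in both libraries. The same held for 8 of 10 markers of inhibitory neurons, for 7 of 11 of pericytes and smooth muscle (1 merged class, called pericytes here) and for only 2 and 3 of 7 of excitatory neurons. Oligodendrocyte precursors are called precursors. Although the tissue was labelled cortex, dentate granule, hippocampal CA3 and striatal projection neurons were present. Median depth ran from 1692 UMIs in microglia to 7360 in excitatory neurons in library 1, and from 1984 to 7778 in library 2. Levels are given as CPM, the UMIs of a gene scaled to a fixed total for the class (1000000 UMIs), for library 1 and then library 2. CPM is not corrected for gene length and is used only to compare 1 gene between classes.

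Transcripts that were highest in excitatory neurons were also found in every other class, and this limits how low levels can be read. Kcnip4, an abundant neuronal transcript, stood at 24.7 to 56.0% of its excitatory level across the 7 non-neuronal classes in library 1 and at 18.3 to 42.0% in library 2. Grin2a, an NMDA receptor subunit gene, stood at 16.8 to 41.5% and 16.5 to 32.7%. Such RNA was thus not confined to a single class or library. Hs3st4 covered 17.9 to 41.8% in library 1 and 19.4 to 30.5% in library 2. Hs3st2 covered 17.9 to 54.7% and 8.24 to 40.0%. The levels of both sulfotransferases in glia and vessels therefore lay within or below the range of Kcnip4. Ndst4 covered 26.8 to 99.7% and 22.2 to 45.8%, and its highest value, in endothelial cells of library 1, came from 31 UMIs of which 17 were in 1 nucleus. Kcnip4 and Grin2a were picked for this after their values had been seen. Whether their UMIs in other classes came from excitatory neurons was not tested. The part that RNA from excitatory neurons has in the level of each member was not tested either.

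**Figure D1:**
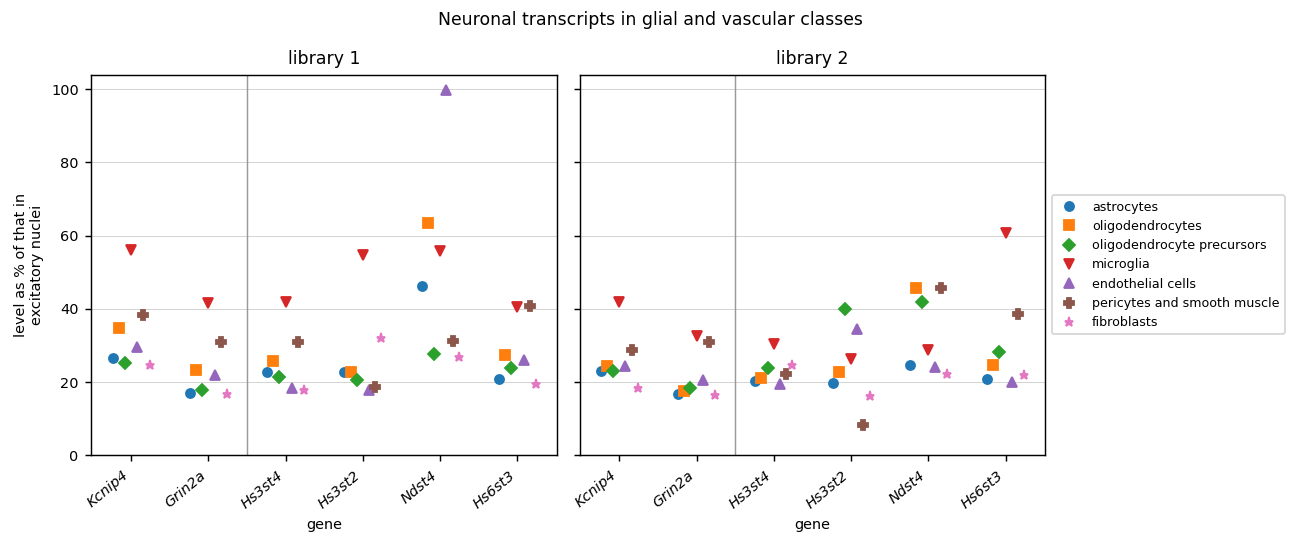
Level of neuronal transcripts and of Hs3st2, Hs3st4, Ndst4 and Hs6st3 in each of 7 non-neuronal classes as a percent of the excitatory level, 1 point per class and library. Hs3st4 lies between 17.9% and 41.8%, near the spans of Kcnip4 and Grin2a, and most of the highest points are microglia.

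Across the 10 classes members of different roles led in different classes. Several sulfotransferases were highest in neurons, some core proteins in astrocytes and oligodendrocyte precursors, and most other core proteins in vessels and fibroblasts. A neuron class was highest for 11 of the 33 members in library 1 and 9 in library 2, and for 8 in both, against a background of 10.5% of all 18748 genes in both. A glial class was highest for 5 in both libraries (background 24.4%), and a vascular or fibroblast class for 9 (background 29.1%). The same class was highest in both libraries for 20 of the 33 members, where 42.4% of all genes did so. For 14 members the highest class was at least 4-fold above the median class in both libraries (1 CPM added to each level), and 16.2% of all genes met that rule. The median of this fold was 4.11 and 4.00 over the members, and 2.198 and 2.242 over all genes. As the members were listed with these values known, no test was made.

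**Figure D2:**
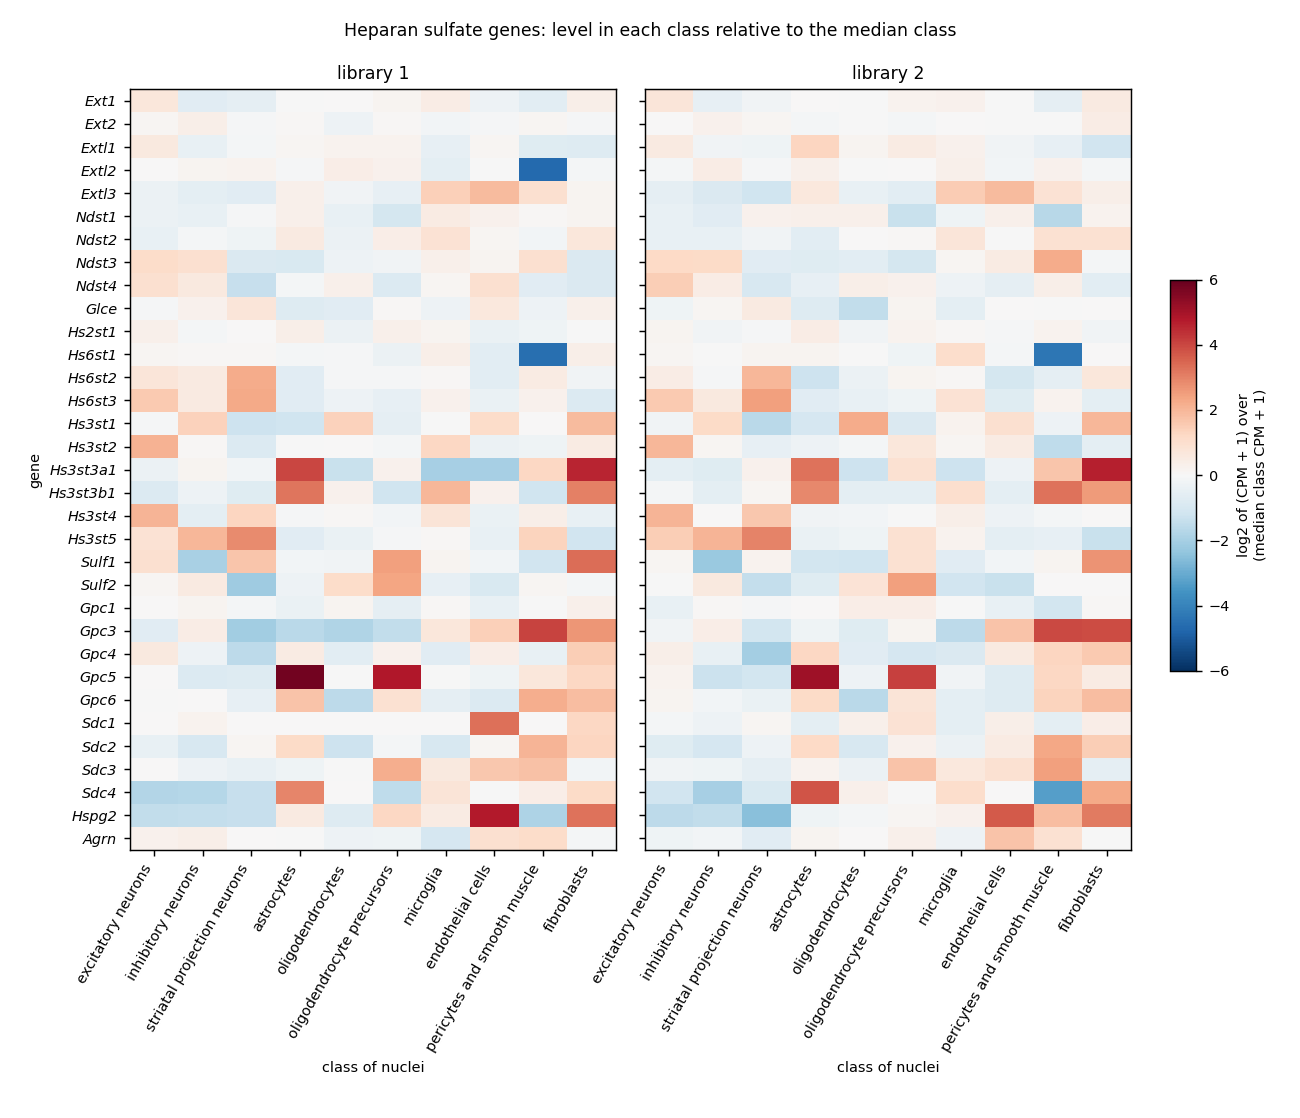
Level of each of the 33 members in 10 classes and both libraries, as log2 of CPM (1 added) over the median class, red above and blue below it. Gpc5 in astrocytes and precursors, Hspg2 in endothelial cells and Hs3st3a1 in fibroblasts stand out in both libraries, most chain polymerases are nearly even, and the darkest blue fields of Extl2 and Hs6st1 are classes with 0 UMIs.

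The chain polymerases differed little between classes apart from Extl3, and none of the 5 reached the 4-fold rule. Ext1, a subunit of the copolymerase that extends the chain, was highest in excitatory neurons at 715 CPM in library 1 (interval 706 to 723) and 729 CPM in library 2 (720.5 to 737). Its lowest levels were 275 CPM in inhibitory neurons of library 1 and 311 CPM in pericytes of library 2. Ext2, the other subunit, ran from 56.8 to 89.96 CPM in library 1 and 67.7 to 99.3 CPM in library 2, so its highest and lowest classes differed by less than 2-fold. Extl3, which starts the chain, was the exception. It was highest in endothelial cells at 339 CPM in library 1 (interval 293 to 391) and 281 CPM in library 2 (251 to 314). Microglia followed at 249.8 and 215 CPM, and striatal neurons were among the lowest at 56.5 and 32.2 CPM. With 3.69-fold and 3.72-fold above the median class it fell just short of the rule. Extl1 and Extl2, exostosin-like family members, changed their highest class between libraries and stayed at or under 37.3 CPM in every class.

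Ndst3 and Ndst4 were highest in excitatory neurons, apart from Ndst3 in pericytes of library 2, and Ndst1 and Ndst2 differed little between classes. N-deacetylase/N-sulfotransferases replace acetyl by sulfate on glucosamine, the step on which later sulfation depends. Ndst1, a broadly expressed member, ran from 11.3 to 34.5 CPM in library 1 and 6.61 to 29.1 CPM in library 2. Ndst2 ran from 6.78 to 18.3 CPM in library 1 and 3.85 to 13.5 CPM in library 2. Ndst3 stood at 239.7 and 214 CPM in excitatory and 213 and 211 CPM in inhibitory neurons. Striatal projection neurons (59.4 and 57.1 CPM) and astrocytes (58.1 and 56.9 CPM) had far less. The pericyte and smooth muscle class had 213 and 443 CPM, from 25 UMIs in library 1 and 67 in library 2, the highest level of Ndst3 in library 2. That level lies above excitatory neurons. Ndst4 was highest in excitatory neurons at 54.7 CPM in library 1 (interval 52.4 to 57.0) and 87.0 CPM in library 2 (84.3 to 89.8). Inhibitory neurons had 41.7 and 41.5 CPM, striatal neurons 10.1 and 15.2 CPM, astrocytes 25.3 and 21.5 CPM and oligodendrocytes 34.6 and 39.9 CPM. It was 15.1 and 36.5 CPM in precursors, 30.5 and 25.0 CPM in microglia, 54.5 and 20.9 CPM in endothelial cells, 17.0 and 39.7 CPM in pericytes and 14.7 and 19.3 CPM in fibroblasts. Of the 10 classes, excitatory neurons thus had the highest Ndst4 value in both libraries. In library 1 endothelial cells were level with them (interval 37.0 to 77.4 CPM). Striatal neurons lay below all 7 non-neuronal classes.

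Neither the epimerase nor the 2-O-sulfotransferase passed the 4-fold rule, and 2 of the 3 6-O-sulfotransferases were highest in striatal projection neurons. Glce, which turns glucuronic into iduronic acid, was highest in striatal neurons at 87.8 and 68.1 CPM. Its lowest level was 30.3 CPM in library 1, in astrocytes, and 16.1 CPM in library 2, in oligodendrocytes. Hs2st1, the single 2-O-sulfotransferase, was highest in astrocytes at 205 and 204 CPM and ran from 123 to 205 CPM in library 1 and 129 to 204 CPM in library 2. Hs6st3 was highest in striatal neurons at 2603 CPM in library 1 (interval 2543 to 2664) and 3749 CPM in library 2 (3656 to 3844). Excitatory neurons followed at 1569 and 2058 CPM and inhibitory neurons at 784 and 1044 CPM, and the non-neuronal classes ran from 306 to 639 CPM in library 1 and 412 to 1252 CPM in library 2. All 3 neuron classes lay above all glial and vascular classes in library 1, and in library 2 microglia, at 1252 CPM, were above inhibitory neurons. Relative to the excitatory level the non-neuronal classes covered 19.5 to 40.7% and 20.03 to 60.8%, against 24.7 to 56.0% and 18.3 to 42.0% for Kcnip4. Hs6st2 was also highest in striatal neurons, at 262 CPM in library 1 (interval 243 to 281) and 315 CPM in library 2 (288 to 343). Excitatory neurons had 91.6 and 107 CPM and fibroblasts 46.7 and 127 CPM. At 4.71-fold and 4.00-fold above the median class it lay just inside the 4-fold rule, and it lost the call with doublets kept and at Leiden resolution 2. Hs6st3 lost it with doublets kept. Hs6st1, the broadly expressed family member, was highest in microglia at 28.4 and 40.4 CPM and had 0 UMIs in pericytes of both libraries. There 3 UMIs would have been 25.6 and 19.8 CPM, so a level like that of other classes was not detectable at this depth.

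The 6 detected 3-O-sulfotransferases led in different classes, 3 of them in neurons, and 4 passed the 4-fold rule. Hs3st4 kept the call in 3 of 6 alternative settings and lost it with no mitochondrial limit, with doublets kept and at Leiden resolution 2. These enzymes make the last and rarest modification of the chain, and the family members differ in the sites they prefer. Hs3st4 was highest in excitatory neurons at 933 CPM in library 1 (interval 924 to 943) and 984 CPM in library 2 (975 to 993). Striatal projection neurons had 552 and 714 CPM and inhibitory neurons only 149 and 237 CPM. In glia it was 212 and 201 CPM in astrocytes, 240.2 and 208 CPM in oligodendrocytes, 106 of 530008 UMIs and then 235 CPM in precursors, and 389.9 and 300.1 CPM in microglia. In the vascular classes it was 172 and 191 CPM in endothelial cells, 289.6 and 218 CPM in pericytes and 167 and 243 CPM in fibroblasts. Inhibitory neurons, though neurons, thus had less Hs3st4 than microglia in both libraries. Of the fibroblast UMIs of library 2, 81 of 252 were in 1 nucleus, and of those of precursors 68 of 135.

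Hs3st2 was highest in excitatory neurons at 137 CPM in library 1 (interval 134 to 141) and 161 CPM in library 2 (157 to 164). Inhibitory neurons had 32.8 and 42.8 CPM and striatal neurons 17.3 and 28.0 CPM. It was 31.2 and 31.6 CPM in astrocytes, 31.2 and 36.5 CPM in oligodendrocytes, 28.3 and 64.3 CPM in precursors and 75.1 and 42.3 CPM in microglia. Endothelial cells had 24.6 and 55.5 CPM, pericytes 25.6 and 13.2 CPM and fibroblasts 44.0 and 26.0 CPM. In endothelial cells of library 2, 24 of 61 UMIs came from 1 nucleus. At 4.30-fold and 4.00-fold above the median class Hs3st2 missed the 4-fold rule in library 2 by less than the rounding. Hs3st5 had the reverse order among neurons. It was highest in striatal projection neurons at 266 CPM in library 1 (interval 247 to 286) and 308 CPM in library 2 (281 to 336), followed by inhibitory neurons at 145 and 159 CPM and excitatory neurons at 67.3 and 106 CPM. Hs3st5 and Hs3st4, members of 1 enzyme family, therefore led in different neuron classes in both libraries.

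Of the remaining 3-O-sulfotransferases, Hs3st3a1 and Hs3st3b1 were low in neurons. Hs3st3a1, one of the isoforms that make the gD-type site, was highest in fibroblasts at 94.7 CPM in library 1 (interval 74.0 to 119) and 59.8 CPM in library 2 (45.8 to 76.6). Astrocytes followed at 63.2 and 21.5 CPM, while excitatory neurons had 2.07 and 0.6002 CPM and microglia 0 UMIs in both libraries, where 3 UMIs would have been 6.09 and 5.77 CPM. Its fold over the median class was 24.1-fold and 25.7-fold. Hs3st3b1, its neighbour on chromosome 11 at a distance of 513 kb, had 105 UMIs in all. Astrocytes had 20.2 and 10.0 CPM (24 UMIs in library 1 and 13 in library 2) and fibroblasts 17.3 and 7.71 CPM (13 UMIs in library 1 and 8 in library 2). Both genes of this pair were thus highest in fibroblasts and astrocytes except for 2 UMIs of Hs3st3b1 in pericytes of library 2. Hs3st1, known for making the antithrombin-binding site, was 64.0 and 70.4 CPM in fibroblasts, 44.9 and 83.2 CPM in oligodendrocytes and 44.9 and 37.9 CPM in inhibitory neurons. Its highest class differed between libraries. Hs3st6 had 9 UMIs and is not described.

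The Sulf enzymes, which remove 6-O-sulfate outside the cell, both passed the 4-fold rule. Sulf2 lost the call with no mitochondrial limit. In that setting the cluster of precursors was left unnamed and precursors were not compared, and oligodendrocytes were the highest of the remaining classes. Sulf1 was highest in fibroblasts at 211 CPM in library 1 (interval 179 to 246) and 265 CPM in library 2 (235 to 298). Precursors followed at 113 and 76.4 CPM, and inhibitory neurons were at 4.44 and 7.92 CPM. Sulf2 was highest in oligodendrocyte precursors at 285 CPM in library 1 (interval 241 to 334) and 288 CPM in library 2 (246 to 336). Mature oligodendrocytes had 118 and 93.3 CPM, and striatal neurons 11.5 and 18.8 CPM. The intervals of Sulf2 in precursors did not touch those of oligodendrocytes in either library. Hs6st2 and Hs6st3, which add 6-O-sulfate, were highest in striatal neurons, where Sulf1 stood at 65.2 and 47.4 CPM.

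Among the glypicans, core proteins anchored by a lipid, Gpc5 was high in astrocytes and precursors and Gpc3 in pericytes and fibroblasts. Gpc5 was at 8539 CPM in library 1 (interval 8374 to 8707) and 8448 CPM in library 2 (8290.4 to 8607) in astrocytes. Precursors had 4285 and 4297 CPM, and the other 8 classes ran from 86.5 to 367 CPM in library 1 and 101 to 582 CPM in library 2. Its fold over the median class was 55.6-fold and 33.9-fold, and astrocytes stood above precursors by more than their intervals in both libraries. Gpc6, its neighbour on chromosome 14 at a distance of 400.1 kb, had 1442 and 1304 CPM in astrocytes and 815 and 1004 CPM in precursors. Pericytes had 1985 and 1475 CPM and fibroblasts 1599.8 and 2139.8 CPM, whereas oligodendrocytes had 147 and 193 CPM. The neighbours thus shared a high level in astrocytes and precursors but not in vessels. Gpc3 was at 221 CPM in library 1 (interval 145 to 325) and 132 CPM in library 2 (80.8 to 204) in pericytes, from 26 UMIs in library 1 and 20 in library 2. Fibroblasts had 82.7 and 131 CPM, endothelial cells 35.2 and 27.3 CPM, and the neuron classes ran from 2.16 to 17.2 CPM in library 1 and 3.04 to 10.3 CPM in library 2. Gpc4, which lies beside Gpc3 on the X chromosome, was highest in fibroblasts at 68.0 and 56.9 CPM but only 2.82-fold and 3.00-fold above the median class. Gpc1 ran from 11.3 to 21.3 CPM in library 1 and 6.61 to 20.8 CPM in library 2. Gpc2 had 0 UMIs, and 3 UMIs in excitatory neurons would have been 0.0757 and 0.0693 CPM.

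Syndecans are transmembrane core proteins, and 3 of the 4 passed the 4-fold rule. Sdc3 kept the call in 2 of 6 alternative settings, and Sdc2 lost it when thinned to 1500 UMIs. In that setting 47 pericyte nuclei were left in library 1, too few for a class. Pericytes, the highest class of Sdc2, were therefore not compared, and whether its call depends on depth cannot be read from this loss. Sdc4, which works at focal adhesions, was highest in astrocytes at 102 CPM in library 1 (interval 84.6 to 122) and 136 CPM in library 2 (117 to 158). Fibroblasts had 29.4 and 47.2 CPM and excitatory neurons 3.102 and 3.39 CPM. Sdc4 was therefore a gene of non-neuronal classes in both libraries. Sdc2 was highest in pericytes at 289.6 CPM in library 1 (interval 201 to 405) and 324 CPM in library 2 (239.7 to 428), followed by fibroblasts at 168 and 179 CPM and astrocytes at 152 and 149 CPM. Sdc3 was spread over 187 and 93.8 CPM in precursors, 136 and 159 CPM in pericytes and 123 and 52.8 CPM in endothelial cells. Precursors led Sdc3 in library 1 and pericytes in library 2. Sdc1, the epithelial syndecan, had 5 UMIs in library 1 and 1 in library 2 in endothelial cells. Excitatory neurons, the largest class, held 16 over both libraries, and the counts were too few to rank the classes.

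Perlecan and agrin are secreted into basement membranes. Hspg2, which encodes perlecan, was highest in endothelial cells at 94.9 CPM in library 1 (interval 71.3 to 124) and 71.9 CPM in library 2 (56.9 to 89.6). Fibroblasts had 33.4 and 48.2 CPM, and no neuron class passed 1.07 CPM. Every neuronal Hspg2 level was thus below every interval of the endothelial class. Agrn, which encodes agrin, was 162 and 86.0 CPM in pericytes and 148 and 149 CPM in endothelial cells. Excitatory neurons had 88.8 and 37.9 CPM, and its level in neurons differed between the libraries.

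**Figure D3:**
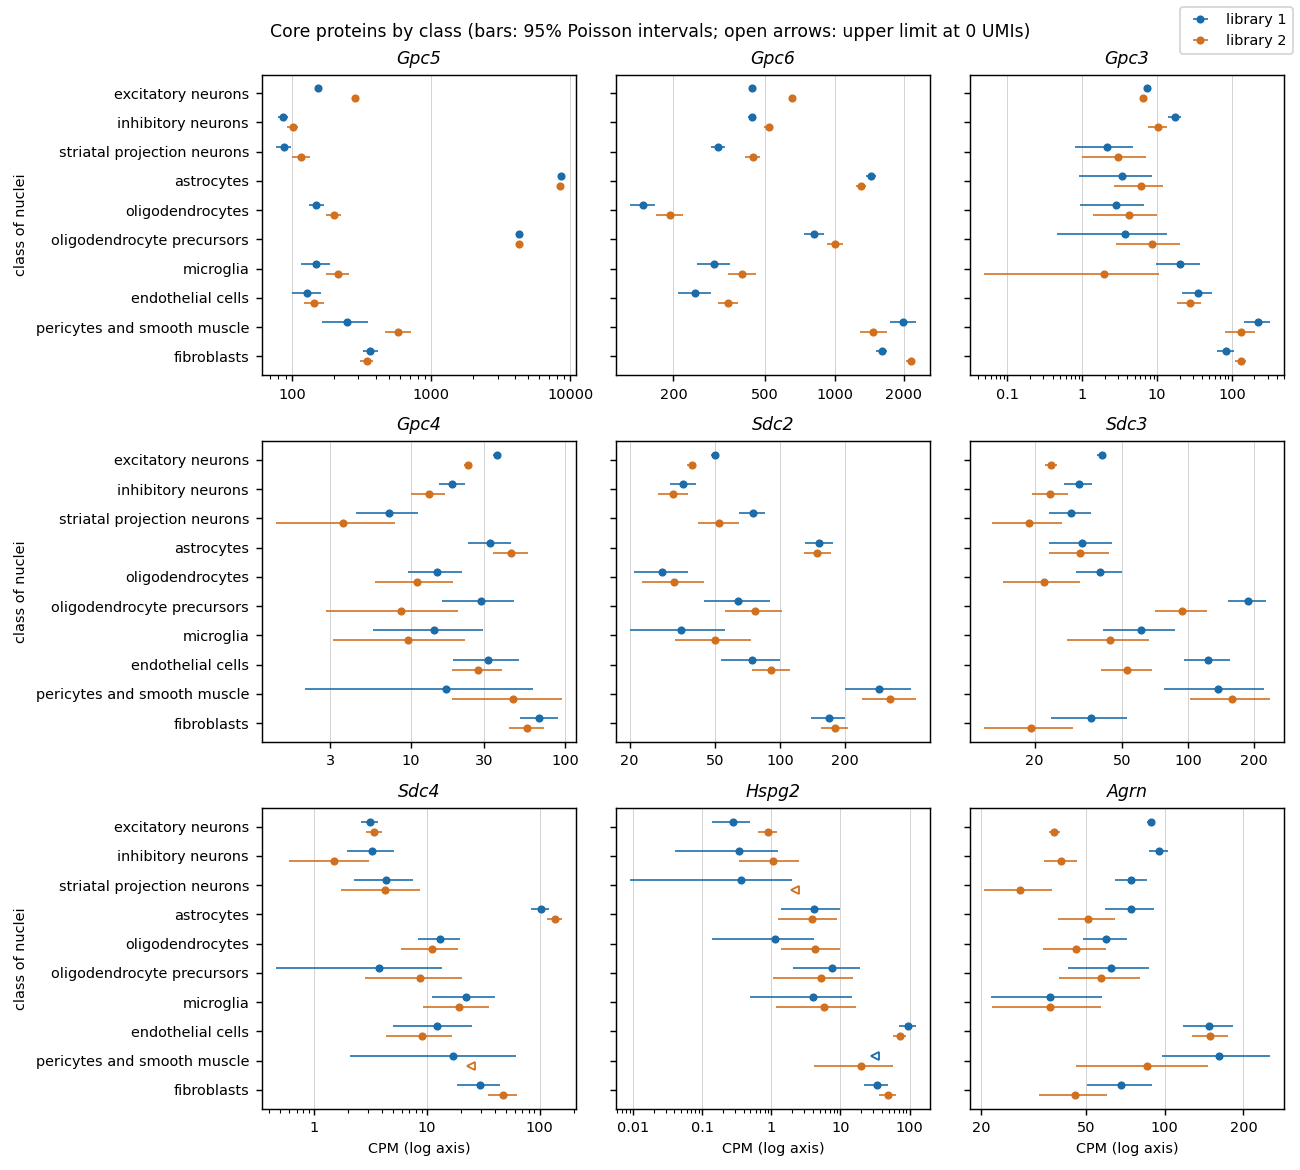
Level in CPM (log axis, 95% Poisson intervals) of core proteins in each class, library 1 and library 2 side by side. Gpc5 reaches 8539 and 8448 CPM in astrocytes, Hspg2 is highest in endothelial cells, and Sdc4 is highest in astrocytes in both libraries.

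The fibroblast class held 2 clusters that differed in several members. Clusters are not replicates, and their values are a description. In one, led by Ranbp3l and Ptgds (119 and 131 nuclei), Hs3st3a1 was at 151 and 98.8 CPM, and in the other, led by Bnc2 and Slc47a1 (91 and 100 nuclei), at 0 and 12.7 CPM. Hs3st1 had the opposite order, with 34.0 and 12.4 CPM in the first and 115 and 140.2 CPM in the second. Gpc3 was at 38.3 and 61.8 CPM in the first and 157 and 215 CPM in the second, and Gpc6 at 1168 and 1180.4 CPM in the first and 2326 and 3295 CPM in the second. Thus 3-O-sulfotransferase genes that were both high in fibroblasts were high in different clusters of them, in both libraries. Sulf1 was close in both clusters, at 217 and 282 CPM in the first and 200.4 and 244 CPM in the second.

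Within excitatory neurons, 18 groups of nuclei were compared. Hs3st4 and Hs3st2 were both high in layer 6 groups, and Ndst4 was high in other groups. A group that matched no marker list is named by its leading genes. Of the 32 members with 20 UMIs there, 13 were at least 4-fold higher in their highest group than in the median group in both libraries, and 6.78% of all genes met that rule. The highest group was the same in both libraries for 17 of the 32, against 39.9% of all genes. Hs3st4 was highest in layer 6b nuclei at 4312 CPM in library 1 (interval 4194 to 4433) and 4773 CPM in library 2 (4651 to 4897). Layer 6 corticothalamic nuclei followed at 4157 CPM in library 1 (interval 4082 to 4232) and 4497 CPM in library 2 (4424 to 4570.5). Hippocampal CA3 nuclei had 3150.2 and 3126 CPM and near-projecting nuclei 3129 and 2986 CPM. In library 1 layer 6 corticothalamic nuclei were instead the highest group with subclustering at resolution 0.5, with members among the variable genes and with doublets kept. The lowest levels of Hs3st4 were in upper layer nuclei (97.5 and 87.1 CPM) and in the Cd44 Plch1 group (65.9 and 127 CPM). The layer 6, near-projecting and CA3 groups thus stood far above the upper layers, with no overlap of intervals, and the highest group was 6.85-fold and 6.54-fold above the median group. The upper layer nuclei fell into 2 subclusters split by library, with 30 and 826 nuclei in one and 780 and 30 in the other, and were compared as 1 group.

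Hs3st2 was high with Hs3st4 in the layer 6 groups but not in CA3. It was at 425 CPM in library 1 (interval 402 to 449.9) and 473 CPM in library 2 (449 to 497) in layer 6 corticothalamic nuclei. Layer 6b nuclei had 376 and 356 CPM. The Dnah14 Blnk group had 349 and 491 CPM, the highest level in library 2, and the Ptprm Il1rapl2 group 313 and 290.0 CPM. Thinned to 1500 UMIs, or with members among the variable genes, layer 6 corticothalamic nuclei were highest in library 2. The Dnah14 Blnk and Ptprm Il1rapl2 groups had 244 and 173 CPM and 629.7 and 576 CPM of Hs3st4. Conversely CA3 nuclei, rich in Hs3st4, had 31.1 and 62.4 CPM of Hs3st2, upper layer nuclei 22.7 and 30.0 CPM and dentate granule nuclei 11.3 and 9.13 CPM.

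Ndst4 was low in the groups where both sulfotransferases were high. Its level was 7.02 and 9.61 CPM in layer 6 corticothalamic and 5.11 and 4.92 CPM in layer 6b nuclei. The Pde11a Fibcd1 group had 246 CPM in library 1 (interval 226 to 268) and 337 CPM in library 2 (313 to 363), and the Otof Ptpro group 179 CPM in library 1 (interval 164 to 195) and 374 CPM in library 2 (356 to 393). The Ntng1 Ppfibp1 group had 229.7 and 229 CPM and dentate granule nuclei 142 and 133 CPM. The highest compared group differed between libraries, and in library 2 it was a Pde11a group at subclustering resolution 0.5. A Fn1 Stac group, whose first leading gene was Ndst4, held 21 and 22 nuclei. It was too small to be compared and its level is not given, so the highest Ndst4 level may lie outside the compared groups. The Pde11a Fibcd1, Otof Ptpro, Ntng1 Ppfibp1 and dentate granule groups were above the layer 6 groups in both libraries. Ndst3, the paralog 1713 kb away, led in other groups. It was at 682 and 537 CPM in layer 5 extratelencephalic nuclei and 521 and 562 CPM in the Pde11a Fibcd1 group. Dentate granule nuclei, rich in Ndst4, had 55.0 and 35.3 CPM of Ndst3, and CA3 nuclei 50.3 and 45.5 CPM.

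**Figure D4:**
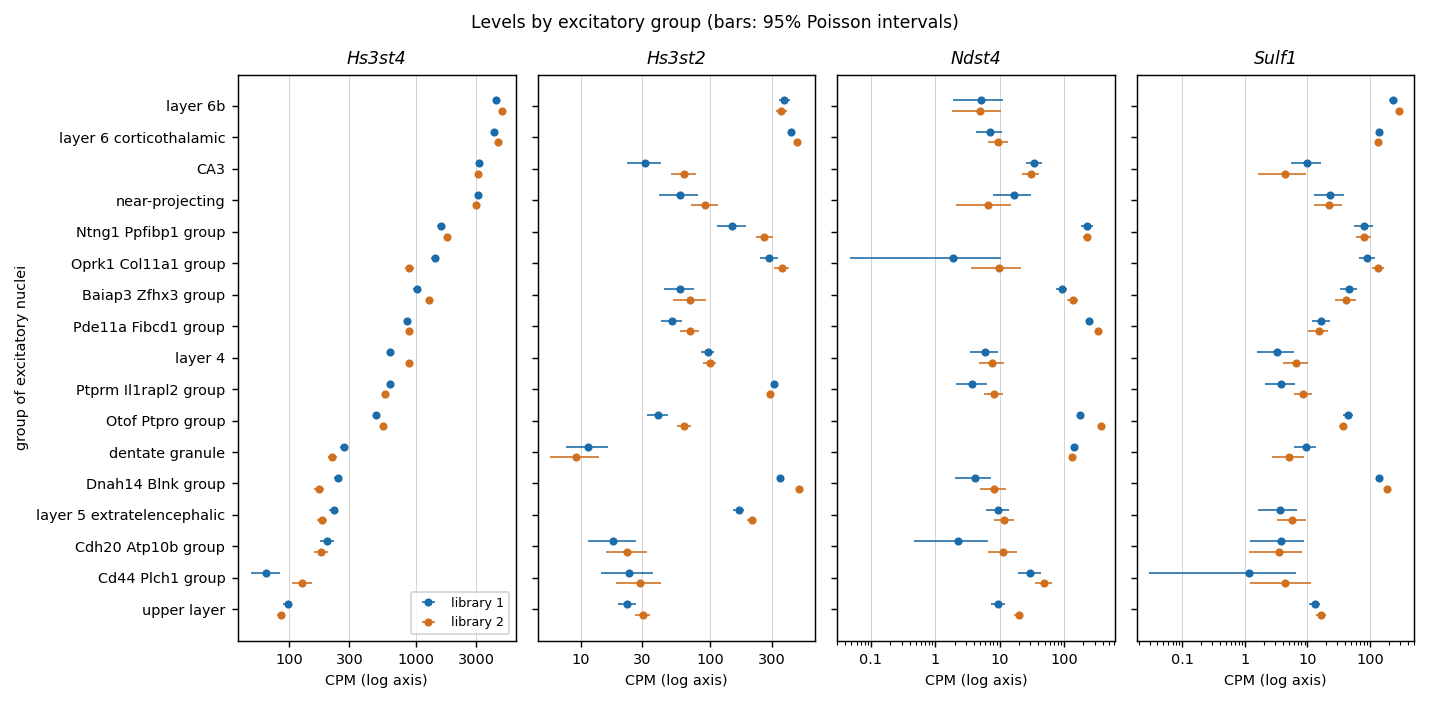
Level in CPM (log axis, 95% Poisson intervals) of Hs3st4, Hs3st2, Ndst4 and Sulf1 in 17 of the 18 excitatory groups compared (a low-depth group is not drawn), library 1 and library 2. Layer 6b and layer 6 corticothalamic groups are at the top for Hs3st4 and near the bottom for Ndst4.

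Other members were high in 1 or a few groups. Sulf1, low in most neurons, was at 230.1 CPM in library 1 (interval 204 to 259) and 289 CPM in library 2 (260.0 to 321) in layer 6b nuclei, about the level it had in fibroblasts (211 and 265 CPM). The Dnah14 Blnk group had 137 and 189 CPM, layer 6 corticothalamic nuclei 141 and 135 CPM and layer 5 extratelencephalic nuclei 3.59 and 5.75 CPM. Sulf2 had another order, with 199.5 and 175 CPM in layer 5 extratelencephalic and 148 and 145 CPM in near-projecting nuclei. The 2 endosulfatases thus led in different deep layer groups in both libraries. Gpc4, a glypican known as a synapse-organising ligand, was at 192 and 119.5 CPM in dentate granule nuclei and 4.56 and 3.41 CPM in layer 6 corticothalamic nuclei. Gpc6 was at 1272 and 1533 CPM in the Ptprm Il1rapl2 group, 1207 and 1190.0 CPM in the Cdh20 Atp10b group, 765 and 1374 CPM in upper layer nuclei and 72.2 and 109 CPM in CA3 nuclei. Gpc5 was at 853 and 554 CPM in the Baiap3 Zfhx3 group, 618 and 791 CPM in the Ntng1 Ppfibp1 group and 527 and 793 CPM in the Pde11a Fibcd1 group, far below astrocytes. Gpc3 was highest in the Baiap3 Zfhx3 group (49.1 and 35.9 CPM), Hs3st1 in the Ntng1 Ppfibp1 group (85.2 and 65.8 CPM) and Hs3st3a1 in layer 4 nuclei (14.8 and 3.85 CPM, 45 UMIs in library 1 and 11 in library 2). Of the 4 glypicans that passed the rule, Gpc4, Gpc6 and Gpc3 thus led in separate groups in both libraries.

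Of other members, Hs6st3 was low in layer 6, opposite to Hs3st4, and Hs3st5, Ext1 and Ndst1 were high there. Hs6st3 was highest in the Cd44 Plch1 group at 3522 and 4838 CPM, where Hs3st4 was near its lowest. Its lowest levels were in layer 6 corticothalamic (236 and 244 CPM) and layer 6b nuclei (268 and 266 CPM). Hs3st5 was highest in layer 6 corticothalamic nuclei at 209 and 302 CPM and low in the Pde11a Fibcd1 group at 11.7 and 17.6 CPM, a group with much Ndst4. Ext1 had 1137 and 1093 CPM in layer 6b nuclei, and Ndst1 42.8 and 33.8 CPM in layer 6 corticothalamic nuclei. Layer 6 corticothalamic nuclei were thus high for Hs3st2, Hs3st4, Hs3st5 and Sulf1 and low for Hs6st3 and Ndst4 in both libraries.

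Single nuclei were then read for the 3 genes together, after each was thinned to 1500 UMIs so that depth was equal (99 and 88 excitatory nuclei and 49 and 8 microglia were shallower and left out). Hs3st4 had a UMI in 44.6% and 44.8% of excitatory nuclei, Hs3st2 in 14.4% and 17.1% and Ndst4 in 5.54% and 6.52%. In microglia, set beside them for comparison, the shares were 35.1% and 31.4% for Hs3st4, 5.36% and 6.37% for Hs3st2 and 6.55% and 1.96% for Ndst4. Whether microglia express these genes themselves was not tested. Hs3st2 thus stood above microglia in both libraries and Hs3st4 by a smaller ratio. The Ndst4 share was above that in microglia in library 2 only. Before thinning, the excitatory shares were 69.9% and 70.5% for Hs3st4, 36.4% and 41.2% for Hs3st2 and 13.7% and 17.1% for Ndst4 at a median depth of 7360 and 7778 UMIs. In microglia they were 40.6% and 42.5% for Hs3st4, 7.83% and 8.02% for Hs3st2 and 5.99% and 5.66% for Ndst4 at 1692 and 1984 UMIs.

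Of excitatory nuclei with Hs3st4, 18.8% in library 1 (interval 17.2 to 20.6%) and 21.6% in library 2 (19.9 to 23.3%) also had Hs3st2. Of those without Hs3st4, 10.8% in library 1 (interval 9.69 to 12.1%) and 13.5% in library 2 (12.3 to 14.8%) had it. In layer 6 corticothalamic nuclei 140 of 141 and 195 of 196 nuclei with Hs3st2 also held Hs3st4, and so did 240 of 245 and 231 of 236 nuclei without it. In layer 6b nuclei 51 of 51 and 43 of 44 nuclei with Hs3st2 also held Hs3st4, and so did 85 of 87 and 90 of 92 nuclei without it. In the Dnah14 Blnk group 26 of 100 and 22 of 121 nuclei with Hs3st2 also held Hs3st4, and so did 42 of 206 and 34 of 155 nuclei without it. Nearly all layer 6 nuclei thus held Hs3st4 with or without Hs3st2, and in each of these groups the shares were close. Ndst4 was found in 0 of 141 and 2 of 196 layer 6 corticothalamic nuclei with Hs3st2, and 3 of the 141 nuclei would have been 2.13%. In the Otof Ptpro group 17.9% and 24.9% of nuclei with Hs3st4 held Ndst4, and in the Pde11a Fibcd1 group 18.7% and 33.3%. The shares among nuclei without Hs3st4 are not given for these groups, so no link between Hs3st4 and Ndst4 is read from them. Shares of nuclei with a UMI count molecules caught, not nuclei that express the gene.

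Among inhibitory neurons, Sst, Pvalb, Vip and Lamp5 nuclei were compared, and Ndst3, Ndst4 and the 3-O-sulfotransferases each had their own order among them. Pvalb nuclei came from 5 clusters, of which one held 157 and 4 nuclei of libraries 1 and 2 and another 1 and 111. None of the 30 members with 20 UMIs was 4-fold or more above the median group in both libraries, where 1.36% of all genes were, and 15 of the 30 had the same highest group (background 41.9%). Ndst3 was at 383 and 355 CPM in Pvalb and 361 and 298 CPM in Lamp5 nuclei, against 65.8 and 76.2 CPM in Sst and 49.2 and 53.9 CPM in Vip nuclei. With 4 groups split this way, the median lies between the pairs and the fold rule is hard to reach. Ndst4 was highest in Lamp5 nuclei at 91.9 and 100.03 CPM and low in Pvalb (18.7 and 14.8 CPM) and Vip nuclei (16.4 and 34.9 CPM). Hs3st5 was at 263 and 322 CPM in Lamp5 and 243 and 254 CPM in Sst nuclei but 22.2 and 33.2 CPM in Pvalb nuclei. Hs3st1 was instead high in Pvalb nuclei, with 90.3 and 70.7 CPM in Pvalb and 10.9 and 12.7 CPM in Vip nuclei. Pvalb nuclei thus had much Ndst3 and Hs3st1 and little Ndst4 and Hs3st5, in both libraries. Hs6st3 was highest in Vip nuclei at 2010.3 and 2579.7 CPM and lowest in Lamp5 nuclei at 518 and 831 CPM. Gpc6 was likewise highest in Vip and lowest in Lamp5 nuclei, with 919.6 and 990.0 CPM and 79.0 and 109 CPM. Vip nuclei also had the most Hs3st2, at 65.6 and 124 CPM.

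Striatal projection neurons were split into D1 and D2 nuclei by marker genes that include their dopamine receptors, and Ndst3 and Hs6st3 differed between them in the same direction in both libraries. Most of these nuclei lay in clusters held almost wholly by 1 library (77 and 2, 62 and 1, and 9 and 85 D1 nuclei, 110 and 2 and 4 and 80 D2 nuclei in libraries 1 and 2), which were joined by name. None of 27 members, and 0% of all genes, passed the 4-fold rule, which cannot be met when the median is the mean of only 2 groups. Ndst3 was lower in D1 nuclei (31.5 and 38.5 CPM) than in D2 nuclei (84.8 and 92.4 CPM) in both libraries. Hs6st3 was higher in D1 (3015 and 4142 CPM) than in D2 nuclei (2434 and 3599 CPM). Hs3st4 changed order, with 621 and 617 CPM in D1 and 518 and 779 CPM in D2 nuclei. The same group was highest in both libraries for 18 of 27 members and for 53.9% of all genes.

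**Figure D5:**
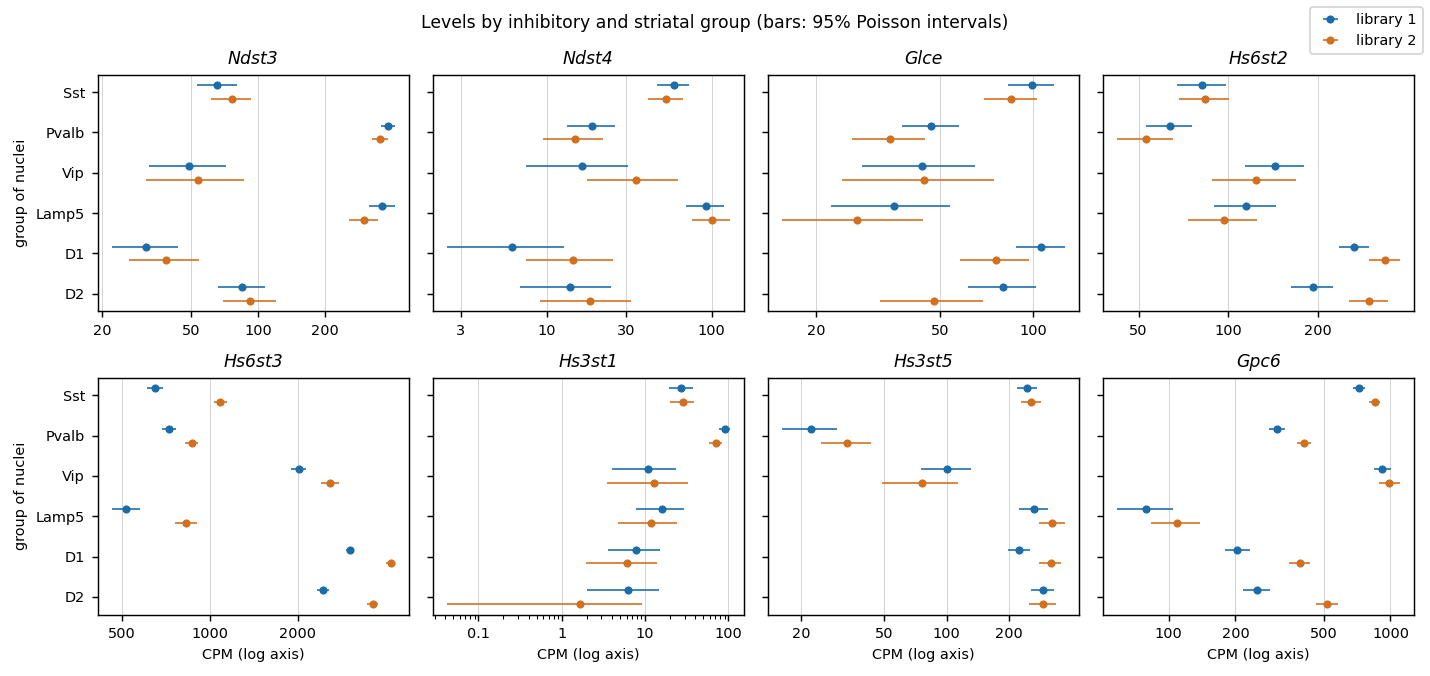
Level in CPM (log axis, 95% Poisson intervals) of 7 enzyme genes and Gpc6 in 4 inhibitory and 2 striatal groups, library 1 and library 2. Ndst3 is high in Pvalb and Lamp5 nuclei and Hs3st5 is low in Pvalb nuclei in both libraries.

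Set side by side, the 2 libraries gave close levels for most members. A gene was called different in a class when the levels differed 2-fold or more with separate intervals, and 12 pairs of a member and a class met this. Because 1 pool of mice stands behind each library, mice, age, handling and sequencing cannot be told apart in such a difference. Excitatory neurons had 1 of 32 members called (background 6.54%), inhibitory neurons 2 of 30 (8.36%) and striatal neurons 1 of 27 (6.66%). Agrn was called in all 3 neuron classes and was lower in library 2, with log2 ratios of library 2 over library 1 of -1.21 in excitatory, -1.22 in inhibitory and -1.38 in striatal neurons. In excitatory neurons it went from 88.8 CPM to 37.9 CPM, while endothelial cells had 148 and 149 CPM. Astrocytes, fibroblasts and pericytes also had lower Agrn values in library 2, with overlapping intervals and no call. The endothelial levels were nearly equal, and the difference between the classes was not tested. Hs3st3a1 in astrocytes went from 63.2 to 21.5 CPM (1 of 29 members called, background 4.19%), and the second call in inhibitory neurons was the same gene, at 3.41 and 0.428 CPM. Hs3st3a1 was thus lower in library 2 in both of these classes. Hs6st2 in fibroblasts went from 46.7 to 127 CPM (1 of 31, background 3.73%). Sdc3 in endothelial cells went from 123 to 52.8 CPM. Endothelial cells had 3 of 26 called (background 4.91%), and the other calls, Ndst4 and Hs3st2, rested partly on single nuclei as given with their levels. Several of the remaining calls had the same limit. Precursors had Ndst3 called (1 of 21, background 3.16%), with 17 of 51 UMIs of library 1 in 1 nucleus. Pericytes had Ndst3 and Gpc5 called (2 of 13, background 2.34%), and for Gpc5 36 of 88 UMIs of library 2 were in 1 nucleus. No member was called in microglia (0 of 23, background 2.89%) or oligodendrocytes (0 of 28, background 6.04%).

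The wider pathway was read from 4 lists of 55 genes, all of which reached 20 UMIs. Of the 55, 18 were 4-fold or more above the median class in both libraries, against the 16.2% of all genes, and 33 had the same highest class in both. Genes for the linker and the sugar and sulfate donors gave 3 of 14. Xylt1, which starts the linker on the core protein, was at 2574 and 3096 CPM in precursors, 17.7-fold and 17.3-fold above the median class. Papss2, which makes the sulfate donor, was at 41.3 and 40.0 CPM in astrocytes. These enzymes of linker and donor synthesis led in different glia. Genes for removal gave 5 of 11. Notum, which releases lipid-anchored proteins, was at 36.9 and 41.9 CPM in endothelial cells. Hpse2, a heparanase relative, had 0 UMIs in astrocytes of library 1 and 244 in library 2, where they came from 4 of 429 nuclei with 135 in 1 nucleus. Other carriers of heparan sulfate gave 4 of 9, with Tgfbr3, a TGF-beta coreceptor, at 547 and 578 CPM in fibroblasts. Col18a1, a basement membrane collagen, was highest in precursors in library 1 (58.5 CPM) and in fibroblasts in library 2 (33.7 CPM). Proteins that bind heparan sulfate gave 6 of 21. Fgfr3, a receptor for fibroblast growth factors, was at 389 and 202 CPM in astrocytes and Fgfr1 at 324 and 264 CPM in fibroblasts. Precursors, rich in Gpc5 and Sulf2, were thus also the class with most Xylt1.

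Members share neighbourhoods on the chromosomes, and longer members had more UMIs. In GRCm38, 10 pairs of members lay within 3 Mb of each other, among them Gpc3 and Gpc4 on chromosome X at 107 kb and Hs6st3 and Gpc6 on chromosome 14 at 1162 kb. Some neighbours shared their highest class and others did not. Hs3st2 and Hs3st4 were both highest in excitatory neurons in both libraries, whereas Hs6st3 was highest in striatal neurons and Gpc6 in pericytes or fibroblasts. Whether neighbours share a class more often than other pairs of genes was not tested. Over the 33 members, gene span and total UMIs had a Spearman rho of 0.70 and a Pearson r of 0.70 on log10 values, across genes that are not independent and share the same libraries. Spans ran from 10.8 kb in Ndst2 to 1433 kb in Gpc5. CPM of nuclear RNA carries this relation, so the order of 2 members' levels in 1 class says nothing of their relative expression.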

How the data were processed

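Droplet-based single-nucleus RNA sequencing was done on 2 samples, each 1 pool of 3 mice, and both are in 1 deposited matrix of UMI counts per gene and barcode. The authors made the counts with Cell Ranger, version 3.1.0 per the file headers and 2.0.1 per the submitters' processing notes, which also name mm10, Seurat 3.1 and R 4.0.2. Annotation and intron handling: not given in the sources used here. Barcodes with at least 200 genes, at most 5% mitochondrial UMIs and a Scrublet doublet score under 0.2 were kept. Scrublet's automatic limit marked 0 and 2 barcodes and so had not worked; the limit of 0.2 was set after the scores were seen and left out 305 and 332 barcodes. Nuclei were clustered with scanpy 1.11.5 (2000 variable genes without members and pathway genes, 30 components, 15 neighbours, Leiden resolution 1), and neuron classes were subclustered (1500 variable genes, resolution 1). Clusters were named from marker lists, with thresholds set after the clusters were seen. UMIs were summed per class and library and scaled to CPM, with intervals from scipy 1.17.1. Depth was 58108297 and 60547146 UMIs per library. A fold call needed a level 4-fold over the median class after adding 1 CPM, in both libraries. No statistical test was made, since each age is 1 pool and no label ties a barcode suffix to an age. Members with such a fold, and Hs3st2, Hs3st4 and Ndst4, are given in most detail; of each pathway list the 2 genes with the largest fold are named. Gene positions are from GENCODE on GRCm38, which is mm10, and promoters from RefSeq. The scripts were tested on simulated data. Alternatives were other filters, resolutions, weights and depths, with 1 added after the data were seen. The members and lists were chosen with earlier results of these data known.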

Additional observations from a re-analysis of the deposited data

How the results depend on the processing

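Counts of members by highest class kept within 1.5 times their value under every alternative tried at the level of classes. However, 9 classes in place of 10 were compared with no mitochondrial limit, at Leiden resolution 2 and thinned to 1500 UMIs. Precursors were missing in the first of these and pericytes in the last, so these counts are not over the same classes. The number of members 4-fold or more above the median class was 14 and ranged from 10 (doublets kept) through 11 (Leiden resolution 2) and 13 (no mitochondrial limit, or thinned to 1500 UMIs) to 15 (without the low-depth excitatory group, an alternative chosen after seeing the data). Of the 14, 8 kept the call in all 6 settings compared gene by gene, and Hs3st4 kept it in 3 and Sdc3 in 2. In excitatory groups the count ranged from 11 to 13 and the number with the same highest group from 14 to 21. In inhibitory groups the count was 1 after thinning to 1500 UMIs, against 0.

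At 4000 UMIs per nucleus in place of 1500, the share of excitatory nuclei with Hs3st4 that held Hs3st2 was 34.1% in library 1 and 38.7% in library 2, against 18.8% and 21.6%. The share of nuclei with Hs3st2 that held Ndst4 was 5.57% and 8.64%, against 3.40% and 4.34%, and of nuclei with Hs3st4 that held Ndst4 10.01% and 12.4%, against 5.32% and 6.81%. More UMIs per nucleus make each gene more likely to be caught, by construction. The highest excitatory group changed for Hs3st4 in library 1 (subclustering resolution 0.5, members among the variable genes, doublets kept), for Hs3st2 in library 2 (members among the variable genes, thinned to 1500 UMIs) and for Ndst4 in library 2 (resolution 0.5), and the cause was not tested. No paired analysis was possible because the matrix columns carry no replicate number and each age is 1 pool. Leaving out a replicate was not possible for the same reason. Depth limits pericytes most, where 3 UMIs are 25.6 and 19.8 CPM.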
